A study of Homo sapiens with 6 samples.

Results

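Integrins and laminins were described across 6 RNA-seq libraries of T3M4, an established human pancreatic ductal adenocarcinoma cell line. The genes were chosen by symbol alone: every protein-coding gene of the count table named as an integrin alpha chain, an integrin beta chain or a laminin chain. That gave 38 of the 58735 genes in the table, of which 19951 were protein-coding, with 18 alpha chains, 8 beta chains and 12 laminin chains. Counts and values below are over 37 of them. The study compared 3 libraries titled as WT, whose genotype label says that MUC16 is expressed, with 3 libraries whose genotype label says MUC16 knockout. All 6 came from untreated cells grown in DMEM with serum and antibiotic to near confluence. MUC16 is a large membrane-tethered mucin of epithelial cells. The labels do not say whether the knockout line is 1 clone or whether the libraries of a group are separate cultures, so p-values measure only the spread between these libraries, which may be technical.

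Library totals ran from 19088927 to 28612621 counts. Levels are given in CPM, read counts relative to the library's total, scaled by TMM factors that correct for composition. MUC16 itself went against the labels at the RNA level, at 4.37 ± 0.866 CPM in the WT-labelled libraries and 15.2 ± 4.29 CPM in the knockout-labelled ones (SD, n = 3 each), so directions below are between labelled groups, called WT-labelled and knockout-labelled. All 5 epithelial markers examined (EPCAM, KRT8, KRT18, KRT19 and CDH1) were detected, with a summed level of 2887 to 2943 CPM in the WT-labelled libraries and 4730 to 4953 CPM in the knockout-labelled ones. The part of that difference in the results below was not tested. In bulk RNA, fewer cells of a type and less RNA per cell cannot be told apart.

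Integrins are cell surface receptors built from 1 alpha and 1 beta chain, and the pair decides which ligand is bound. Laminins are secreted trimers of an alpha, a beta and a gamma chain and form the sheet of the basement membrane under epithelia. Laminin-332, an epithelial laminin to which LAMA3 and LAMB3 contribute chains, is bound in epithelia by integrins α6β4 and α3β1, and α6β4 anchors the hemidesmosome to keratin filaments.

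The laminin genes were mostly lower and the integrin beta chain genes mostly higher in the knockout-labelled libraries. Of the 37 genes, 29 had enough counts to be tested with edgeR's quasi-likelihood test, and 22 of these (75.9%) passed a Benjamini-Hochberg adjusted p of 0.05, 11 higher and 11 lower. Of all 16655 genes tested 52.6% were called, 26.7% higher and 25.9% lower. Among laminin chains 2 were higher and 6 lower of 10 tested (median log2 fold change -0.31). Among beta chains 6 were higher and 1 lower of 7 tested (median 0.56). Alpha chains went both ways, with 3 higher, 4 lower and 5 not called of 12 tested (median 0.08). The median over all 29 was 0.11, beside 0.0035 over all genes tested. Of the 29 tested, 2 were called with a change of at least 2-fold, ITGB2 and ITGAX, both upward. That share is near the 8.87% of all genes tested that did so in either direction.

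Most of the strongly expressed chains were lower, and among strongly expressed genes in general lower calls also outnumbered higher ones. Of 15 integrin and laminin genes with a mean level over 64 CPM, 5 were higher and 10 lower (median -0.27). The level of 64 CPM was chosen with earlier results known. Among all 3869 genes over that level 71.9% were called, 22.0% higher and 49.9% lower, with a median of -0.11. Of the 14 tested genes below it, 6 were higher, 1 was lower and 7 were not called (median 0.47). Of all 12786 genes tested under that level 46.7% were called, near the 7 of 14 here, 28.1% higher and 18.7% lower, with a median of 0.06. When libraries were scaled by cyclic loess, which corrects by expression level, the median of all genes over 64 CPM moved to -0.01 and that of the 15 genes to -0.12.

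**Figure D1:**
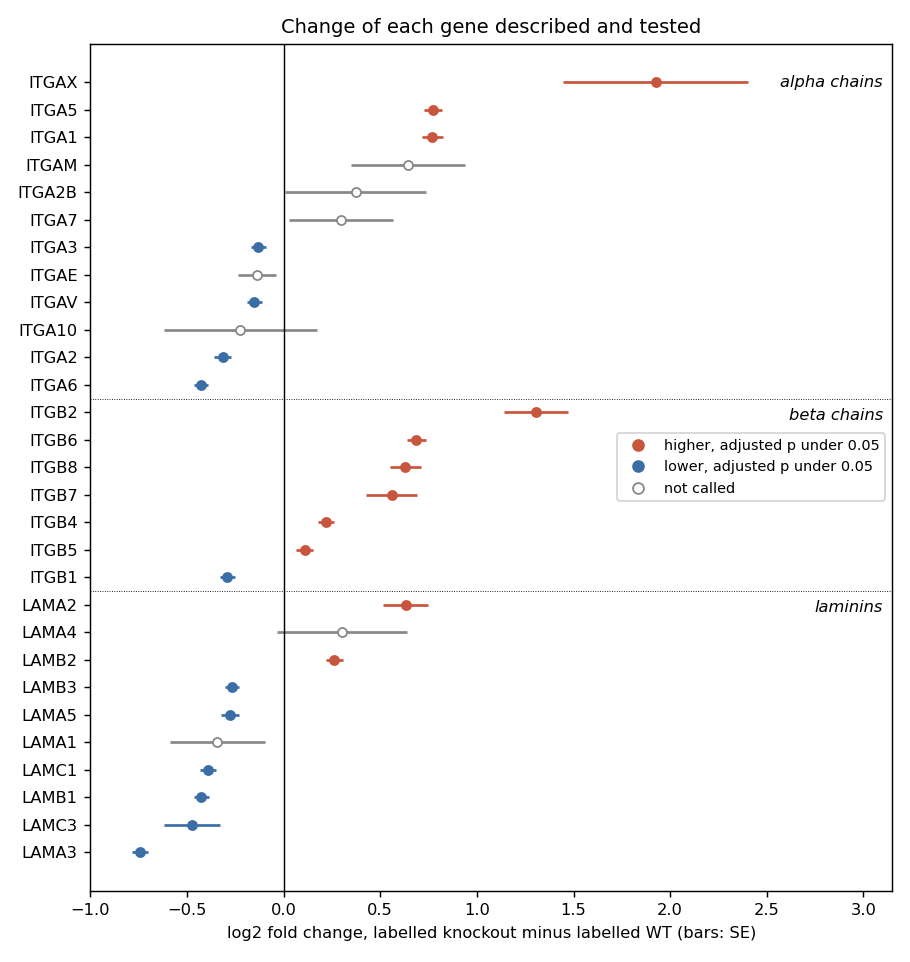
Log2 fold change of each of the 29 tested genes, labelled knockout minus labelled WT (points, with bars for the SE from edgeR), grouped into alpha chains, beta chains and laminins. Filled points passed the adjusted p threshold. Most laminin points lie left of 0, down to LAMA3 at -0.74, and 6 of the 7 beta chain points lie right of it.

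Among the genes described, T3M4 expressed a narrow set at high level. Divided by exonic gene length, as CPM per kilobase, ITGA6 was at 271.2 ± 6.63 in the WT-labelled libraries, ITGA3 at 246.8 ± 5.46 and ITGB4 at 212.7 ± 9.36 (SD, n = 3 each). LAMB3 (191.0 ± 3.64) and ITGB1 (186.7 ± 5.69) came next and lay within their spread of each other. The order was different in the knockout-labelled libraries, where ITGB4 was highest at 247.9 ± 8.43, followed by ITGA3 (225.2 ± 9.70), ITGA6 (201.5 ± 1.78), LAMB3 (158.8 ± 1.40) and ITGB1 (152.5 ± 3.47). These 5 genes encode the chains of α6β4 and α3β1 and a beta chain of the laminin they bind. Gene length here is the union of all annotated exons, so a gene with long rare exons is given too low a level per kilobase.

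**Figure D2:**
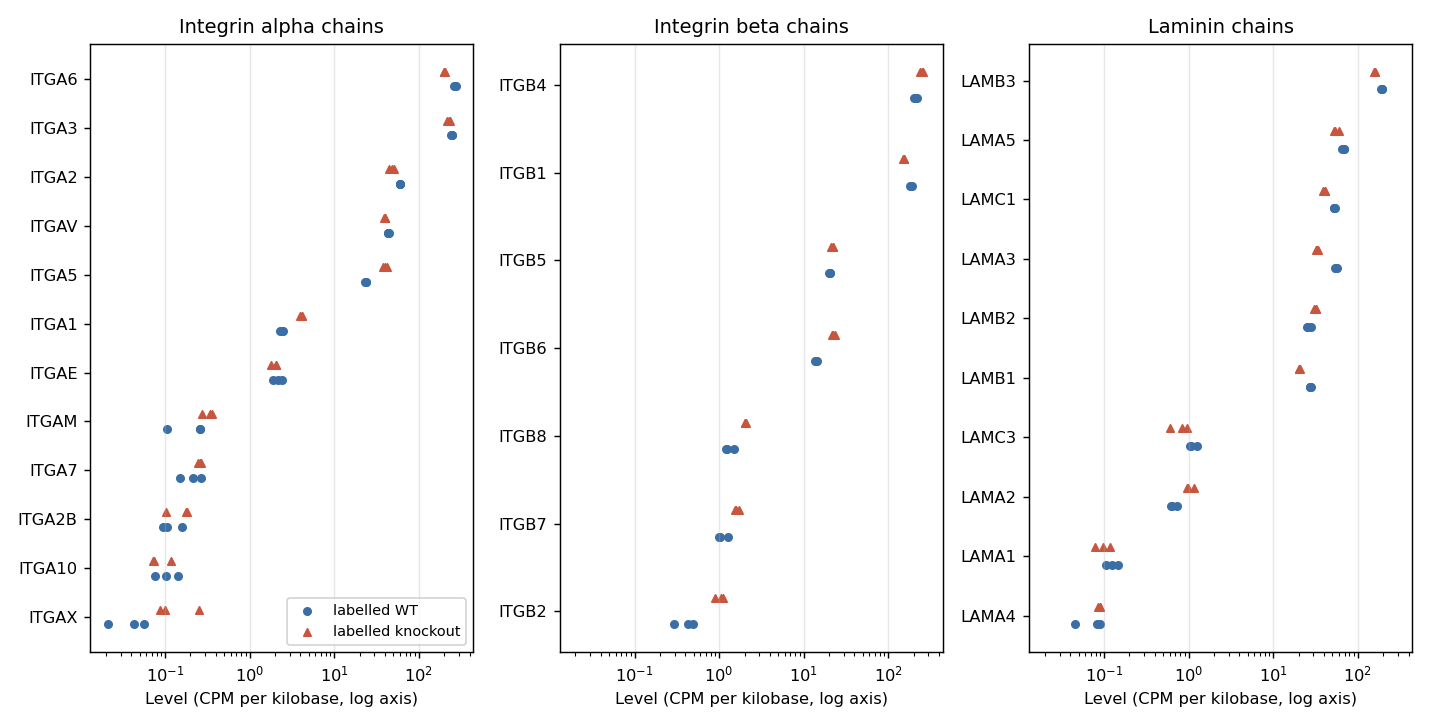
Level of each tested gene in each library in CPM per kilobase on a log axis, in panels for alpha chains, beta chains and laminin chains, with 1 point per library. ITGA6, ITGA3, ITGB4, LAMB3 and ITGB1 lie at the top in both groups, the lowest of them ITGB1, which averaged 152.5 in the knockout-labelled libraries.

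LAMA3 and LAMB3, which encode chains of laminin-332, fell unequally. Gene positions here and below are those of the count table, on GRCh38. LAMA3 (ENSG00000053747, chr18:23689443-23956222, plus strand), the alpha chain with the receptor-binding domain, had 811.4, 784.4 and 833.5 CPM in the WT-labelled libraries against 490.1, 495.0 and 466.4 CPM. The groups lay far apart, and the fall, to 0.597-fold, was the largest among the genes described (log2 fold change -0.74 ± 0.04, SE, adjusted p = 3.72e-13 by edgeR, with Benjamini-Hochberg).

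LAMB3 (ENSG00000196878, chr1:209614870-209652466, minus strand), the beta chain, fell by less. It had 875.8, 902.6 and 907.4 CPM in the WT-labelled libraries and 748.1, 737.1 and 748.8 CPM in the knockout-labelled ones, a log2 fold change of -0.27 ± 0.04 (SE, edgeR adjusted p = 2.21e-06). With cyclic loess its change was -0.12 and still passed. The ratio of LAMA3 to LAMB3, per kilobase within a library, went from 0.289 ± 0.00995 to 0.208 ± 0.0079. The lengths used are the union of all annotated exons, 14678 bases for LAMA3 and 4688 for LAMB3. The size of the ratio depends on them and is not a ratio of transcripts. The 8 ratios computed were chosen with the values known and carry no test.

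LAMA3 and LAMB3, which fell, and ITGA5, which rose, were the 3 genes with the AP-1 letters TGANTCA in a promoter window. Windows run from 250 bases before to 50 after each start site that RefSeq (GRCh38.p14) gives, and 26 of the 37 genes had at least 1, with 33 windows in all. The letters, which read the same on both strands, occur in 7.71% of 35116 windows of this length and in 3 of the 33 here. They are shown in capitals in the bases before each start site, 5′ to 3′ on the gene's strand. The ITGA5 sequence includes the start site itself, on which its match ends. A match of letters is a description of the sequence and not a binding site.
LAMA3 chr18:23872770-23873019 (+): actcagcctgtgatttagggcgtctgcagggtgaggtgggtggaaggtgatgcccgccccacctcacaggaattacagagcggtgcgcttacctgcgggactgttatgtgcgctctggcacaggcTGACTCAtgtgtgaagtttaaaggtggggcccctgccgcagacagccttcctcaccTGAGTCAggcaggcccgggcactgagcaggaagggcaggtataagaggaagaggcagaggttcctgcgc
LAMB3 chr1:209651375-209651624 (-): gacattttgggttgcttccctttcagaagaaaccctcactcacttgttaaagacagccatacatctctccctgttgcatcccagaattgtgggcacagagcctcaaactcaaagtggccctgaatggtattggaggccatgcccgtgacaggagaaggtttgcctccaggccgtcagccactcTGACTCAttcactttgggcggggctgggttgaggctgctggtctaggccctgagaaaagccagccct
ITGA5 chr12:54419266-54419516 (-): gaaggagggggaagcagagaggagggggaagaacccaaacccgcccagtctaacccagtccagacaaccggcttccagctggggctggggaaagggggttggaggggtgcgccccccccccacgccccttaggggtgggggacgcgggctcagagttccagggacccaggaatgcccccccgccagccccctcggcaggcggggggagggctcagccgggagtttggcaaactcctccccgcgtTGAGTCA
The LAMA3 window holds the letters at 125 and 69 bases before a start site that lies 183577 bases inside the annotated gene. The LAMB3 window is 1 of 3 for that gene, with the letters at 67 bases before its start site. In ITGA5 they begin 6 bases before the start site, and the TEAD letters GGAATG lie at 82 bases before it. Those letters, searched on both strands, occur in 14.0% of all windows and in 4 of the 33 here. The 4 belong to ITGA5 and LAMA2, which rose, ITGB1, which fell, and ITGA10, which was not called. The GC box letters GGGCGG occur in 45.0% of all windows and in 19 of the 33 here, which belong to 14 of the 26 genes. The hypoxia core letters ACGTG occur in 21.4% of all windows and in 3 of the 33, those of ITGA6 and ITGA11.

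Of the other laminin chains LAMC1, LAMB1, LAMA5 and LAMC3 fell, LAMB2 and LAMA2 rose, and LAMA1 and LAMA4 did not pass the test. LAMC1 (ENSG00000135862, chr1:183023460-183145592, plus strand), the gamma chain of most laminins, had 436.0, 440.6 and 457.0 CPM in the WT-labelled libraries and 350.1, 343.3 and 325.1 CPM in the knockout-labelled ones (log2 fold change -0.39 ± 0.04, SE, edgeR adjusted p = 2.86e-08). LAMB1 (ENSG00000091136, chr7:107923799-108003255, minus strand), a beta chain that pairs with it, had 222.3, 222.8 and 228.6 CPM against 167.0, 170.3 and 164.3 CPM (-0.43 ± 0.04). Neither gene had overlapping groups. LAMA5 (ENSG00000130702, chr20:62307955-62367312, minus strand), the alpha chain of the laminins most widespread in adult epithelia, had 920.8, 975.4 and 992.6 CPM against 765.5, 867.6 and 750.9 CPM (-0.28 ± 0.05, edgeR adjusted p = 3.25e-05). KO replicate 2 came nearest to the other group for LAMA5, without overlap, and the change was -0.14 with cyclic loess. LAMA5 shares 244 exonic bases with ADRM1 and LAMB1 shares 70 with DLD, and reads there can belong to either gene.

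LAMB2 (ENSG00000172037, chr3:49121114-49133118, minus strand), the beta chain that can take the place of LAMB1, rose from 173.3, 176.6 and 192.1 CPM to 208.0, 223.0 and 218.8 CPM (log2 fold change 0.26 ± 0.05, SE, edgeR adjusted p = 3.5e-05). The ratio of LAMB2 to LAMB1 per kilobase was 0.925, 0.940 and 0.996 in the WT-labelled libraries and 1.48, 1.55 and 1.58 in the knockout-labelled ones. LAMB1 was thus the higher of the pair in the first group and LAMB2 in the second. LAMA2 (ENSG00000196569, chr6:128883141-129516569, plus strand), an alpha chain best known from muscle, rose at a low level, from 6.86 ± 0.695 to 10.6 ± 1.13 CPM (0.63 ± 0.12). LAMC3 fell from 8.56 ± 0.931 to 6.08 ± 1.42 CPM (-0.47 ± 0.14, edgeR adjusted p = 0.00747), a call lost without WT replicate 2 (adjusted p = 0.052) or KO replicate 1 (0.0555). LAMA1 (-0.34) and LAMA4 (0.30) did not pass, at 1.99 and 0.833 CPM in the WT-labelled libraries. With cyclic loess LAMA1 passed (-0.57, adjusted p = 0.0489).

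The chains of the hemidesmosomal integrin moved in opposite directions. ITGA6 (ENSG00000091409, chr2:172427354-172506282, plus strand), the alpha chain of α6β4 and α6β1, had 1808.8, 1724.1 and 1781.9 CPM in the WT-labelled libraries and 1308.2, 1311.7 and 1329.8 CPM in the knockout-labelled ones. The groups were wide apart, with a log2 fold change of -0.43 ± 0.04 (SE, edgeR adjusted p = 1.16e-09) that was -0.28 with cyclic loess. ITGB4 (ENSG00000132470, chr17:75721328-75757818, plus strand), the beta chain whose long tail binds plectin, rose from 1367.8, 1490.5 and 1456.3 CPM to 1679.9, 1730.6 and 1616.8 CPM (0.22 ± 0.04, edgeR adjusted p = 7.75e-05). With cyclic loess its rise was 0.37. The ratio of ITGB4 to ITGA6 per kilobase was 0.731, 0.835 and 0.790 in the WT-labelled libraries and 1.24, 1.27 and 1.17 in the knockout-labelled ones, below 1 in the first group and above 1 in the second.

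ITGB1 (ENSG00000150093, chr10:32900319-33005792, minus strand), the beta chain shared by the largest number of alpha chains, fell from 1156.8, 1088.3 and 1122.2 CPM to 914.0, 897.3 and 938.7 CPM. Its groups did not overlap, and the log2 fold change was -0.29 ± 0.04 (SE, edgeR adjusted p = 9.49e-07), or -0.15 with cyclic loess. ITGA3 (ENSG00000005884, chr17:50055968-50090481, plus strand), which pairs with ITGB1 to bind laminin-332 and laminin-511, was the highest of all these genes by CPM and the 15th of all genes in the table. It had 2360.4, 2429.9 and 2465.8 CPM against 2276.0, 2248.4 and 2099.2 CPM (-0.13 ± 0.04, edgeR adjusted p = 0.00698). The call was lost with cyclic loess, where the change was 0.025 (adjusted p = 0.625), with upper-quartile factors (-0.08, adjusted p = 0.111) and without WT replicate 3 (adjusted p = 0.0527). ITGB1 made up 42.8% ± 1.74 of the summed beta chain level per kilobase in the WT-labelled libraries and 33.9% ± 1.17 in the knockout-labelled ones, and ITGB4 48.7% ± 1.64 and 55.1% ± 1.23. The exact two-sided permutation p was 0.1, the smallest that 3 libraries against 3 allow, for each of the 8 beta chain shares tested, and 0.1 after Benjamini-Hochberg adjustment.

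**Figure D3:**
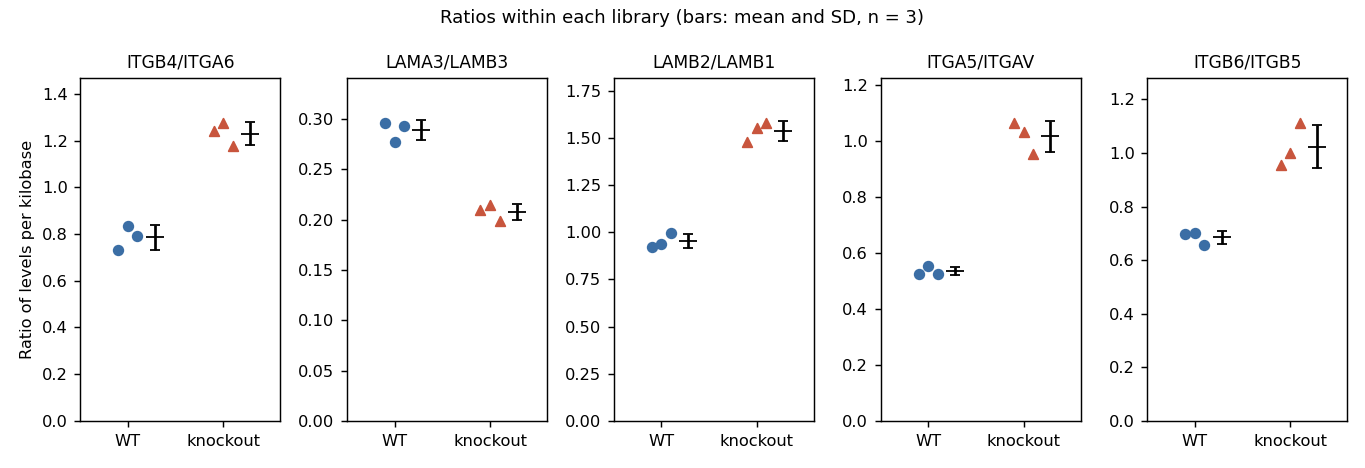
Ratio of the levels per kilobase of 5 pairs of genes within each library, with 3 points per group and bars for mean and SD, each axis starting at 0. ITGB4/ITGA6 goes from 0.785 to 1.23 and LAMB2/LAMB1 from 0.954 to 1.54, while LAMA3/LAMB3 is lower in the knockout-labelled libraries.

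Chains of the receptors for fibronectin and for latent TGF-beta, ITGA5, ITGB6 and ITGB8, were higher. ITGA5 (ENSG00000161638, chr12:54395261-54419460, minus strand), the alpha chain of the main fibronectin receptor, rose from 174.2, 183.1 and 178.8 CPM to 323.7, 305.9 and 287.2 CPM, 1.71-fold (log2 fold change 0.77 ± 0.05, SE, edgeR adjusted p = 1.48e-12). The groups were far apart. Its partner ITGB1 fell, as given above, and the ratio of ITGA5 to ITGB1 per kilobase went from 0.126 to 0.265. Fibronectin itself, FN1, was at 8.93 CPM and 11.8 CPM in the 2 groups (0.40).

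ITGAV (ENSG00000138448, chr2:186590065-186680901, plus strand), the alpha chain that pairs with ITGB1, ITGB3, ITGB5, ITGB6 and ITGB8, had 358.7, 358.5 and 368.1 CPM in the WT-labelled libraries and 329.7, 321.4 and 326.2 CPM in the knockout-labelled ones (log2 fold change -0.15 ± 0.04, SE, edgeR adjusted p = 0.00201). With cyclic loess the change was -0.03 and the call was lost (adjusted p = 0.556). Several of its beta chains rose. ITGB6 (ENSG00000115221, chr2:160099666-160200313, minus strand), an epithelial chain that with ITGAV binds and activates latent TGF-beta, went from 65.0, 67.8 and 63.9 CPM to 101.0, 105.6 and 109.9 CPM (0.69 ± 0.05, edgeR adjusted p = 3.96e-11). ITGB8 (ENSG00000105855, chr7:20330702-20415754, plus strand), which also binds latent TGF-beta, went from 18.1, 22.9 and 18.8 CPM to 31.1, 31.2 and 30.5 CPM (0.63 ± 0.08). In both genes every knockout-labelled library lay above every WT-labelled one. ITGB5 (ENSG00000082781, chr3:124761948-124901418, minus strand), a vitronectin receptor chain, was at 131.8 ± 2.79 and 142.2 ± 5.34 CPM (0.11 ± 0.04, edgeR adjusted p = 0.0406), a call lost in 8 of 14 alternative fits and at a threshold of 0.01. The call was lost on leaving out any 1 library other than KO replicate 3 (adjusted p from 0.0780 to 0.162). Its change was 0.21 with cyclic loess. The share of ITGB6 among beta chains per kilobase was 3.20% ± 0.093 and 5.01% ± 0.244. TGFB1, whose latent form these receptors bind, fell from 199.1 to 160.9 CPM (-0.31).

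The collagen receptor chains ITGA1 and ITGA2, which lie 30115 bases apart on chromosome 5 and both pair with ITGB1, went opposite ways. ITGA1 (ENSG00000213949, chr5:52787896-52959210, plus strand) rose from 45.7, 45.0 and 42.5 CPM to 73.3, 76.9 and 77.0 CPM (log2 fold change 0.77 ± 0.05, SE, edgeR adjusted p = 2.15e-11). ITGA2 (ENSG00000164171, chr5:52989326-53094779, plus strand) fell from 471.3, 474.7 and 475.1 CPM to 386.2, 406.6 and 349.4 CPM (-0.32 ± 0.05, edgeR adjusted p = 3.82e-06), and by less with cyclic loess (-0.19). Neither had overlapping groups, and ITGA2 stayed the higher of the pair. The 781 tested genes of chromosome 5 had a median of -0.20, with 111 higher and 366 lower, and the part of that shift in these values was not tested. ITGA1 shares 475 exonic bases with PELO on the same strand, whose counts were 2179, 2246 and 1887 in the WT-labelled libraries and 1302, 1647 and 1987 in the knockout-labelled ones.

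Integrin chains known from blood cells were at low levels. ITGB2 (ENSG00000160255, chr21:44885953-44931989, minus strand), the beta chain of the leukocyte integrins, had 89, 79 and 45 counts in the WT-labelled libraries and 118, 195 and 208 in the knockout-labelled ones, or 2.78 ± 0.694 and 6.91 ± 0.792 CPM (log2 fold change 1.31 ± 0.17, SE, edgeR adjusted p = 5.58e-07). ITGAX (ENSG00000140678, chr16:31355134-31382997, plus strand), one of its partners, had 8, 4 and 9 counts against 12, 18 and 53 (1.93 ± 0.48, edgeR adjusted p = 0.00165). KO replicate 3 held most of those counts, and without it the change was 1.22 (adjusted p = 0.0592). With cyclic loess, all libraries kept, it was also 1.22 and passed (adjusted p = 0.0211). ITGAX passed the filter through the knockout-labelled libraries, where it is higher, which favoured a call in that direction. ITGAM, another partner, had 16, 40 and 33 counts against 38, 53 and 46 and did not pass (0.64, edgeR adjusted p = 0.0733), though it did without WT replicate 2 (0.0442) and with limma-voom (0.0496). ITGB2 shares 303 exonic bases with ITGB2-AS1, whose reads cannot be told apart from it without strand. ITGB2-AS1 had 32, 36 and 24 counts in the WT-labelled libraries and 34, 56 and 89 in the knockout-labelled ones. The part of its reads in the rise of ITGB2 was not tested.

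Of 8 leukocyte markers, 6 had too few counts to be tested. PTPRC, which encodes CD45 of all leukocytes, had 0, 4 and 1 counts in the WT-labelled libraries and 1, 8 and 2 in the knockout-labelled ones, and the B cell gene MS4A1 had 0 in all 6. LCP1, an actin-bundling protein also made by many carcinoma lines, carried nearly all of the list's summed level of 660.4 to 723.8 CPM and 511.8 to 555.3 CPM, and fell. CD14 did not pass (0.42, edgeR adjusted p = 0.0610). Markers of other cell types moved as well. All 3 endothelial markers were called higher, beside 26.7% of all genes tested. Their summed level was 13.4 to 16.5 CPM in the WT-labelled libraries and 19.7 to 22.0 CPM in the knockout-labelled ones. CDH5 went from 0.721 to 2.10 CPM, VWF from 0.264 to 0.720 CPM and PECAM1, which carried most of the sum, from 13.9 to 17.8 CPM. VWF had 13, 2 and 5 counts in the WT-labelled libraries and 17, 20 and 15 in the knockout-labelled ones. It passed the filter through the latter, where it is high, which favoured a call in that direction. Of 6 fibroblast markers COL1A1 rose from 31.4 to 42.2 CPM, LUM did not pass (0.49), and the other 4 had too few counts, with COL1A2 at 0 in all libraries but 1. All 4 platelet and all 3 acinar markers had too few counts. The part of these markers in the values of ITGB2 and ITGAX was not tested. ITGB7 rose from 4.93 ± 0.661 to 7.29 ± 0.383 CPM (log2 fold change 0.56 ± 0.13, SE, edgeR adjusted p = 0.00108). It shares 1886 of its 4481 exonic bases with ZNF740 on the opposite strand. ITGB7 had 118, 153 and 103 counts in the WT-labelled libraries and 151, 184 and 205 in the knockout-labelled ones. ZNF740 had more, 1081, 1075 and 890 against 938, 1202 and 1425. The part of ZNF740 reads in the rise of ITGB7 was not tested. ITGAE, the partner of ITGB7 in lymphocytes of epithelia, did not pass (-0.14, edgeR adjusted p = 0.257), nor did ITGA7 (0.30), ITGA10 (-0.22) and the platelet chain ITGA2B (0.37). Each of these was under 2 CPM apart from ITGAE at 14.3 CPM.

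The 8 genes with too few counts for a test were ITGA4, ITGA8, ITGA9, ITGA11, ITGAD, ITGAL, ITGB3 and LAMB4. ITGAD had the most, with 4, 9 and 2 counts in the WT-labelled libraries and 15, 17 and 9 in the knockout-labelled ones. It passed the filter and the test when WT replicate 2 was left out (log2 fold change 2.14, edgeR adjusted p = 0.0128), and likewise without KO replicate 3 (1.82, 0.0105). WT replicate 2 was the highest of its group and KO replicate 3 the lowest of its own. In these fits ITGAD passed the filter only through knockout-labelled libraries, where it is high, so the calls give no support for a rise. ITGB3, a beta chain that pairs with ITGAV and ITGA2B, had 0, 1 and 0 counts against 3, 7 and 4. ITGA8 had 0 counts in every library, which allows up to 0.102 to 0.154 CPM, depending on the library and for counting error only.

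Genes that work with these chains were taken from 5 lists chosen for their known roles. Of 113 genes in all, 100 were tested, 36 higher and 41 lower, or 77.0% called beside 52.6% of all genes tested. That background share depends on level, at 71.9% of genes over 64 CPM and 46.7% of those under it. The lists were not split by level. Among 35 tested adaptors and kinases that link integrins to actin, 8 were higher and 18 lower (median log2 fold change -0.14). LPXN, a relative of paxillin, fell from 36.1 ± 5.20 to 11.1 ± 1.19 CPM (-1.72), and the actin crosslinker FLNA from 3860.4 ± 94.8 to 2307.1 ± 146.4 CPM (-0.74). The adaptor DAB2 (-0.84) fell too, and so did talin-1, TLN1 (-0.28), and kindlin-1, FERMT1 (-0.64), which switch integrins on. The other talin and kindlins did not fall with them. TLN2 rose (0.41), and FERMT2 (0.04) and FERMT3 (-0.04) were not called. FERMT3 was above FERMT1 in level, at 423.6 CPM against 152.2 CPM in the WT-labelled libraries. TNS2 rose from 7.32 to 17.5 CPM and NEDD9 from 26.3 to 48.8 CPM. LIMS2 was also called higher (2.69), from 0.117 to 0.793 CPM, and stayed under 1 CPM in every library. It passed the filter only through the knockout-labelled libraries, where it is high, which favoured a call in that direction.

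Hemidesmosome and tetraspanin partners were 7 higher and 3 lower of 11 tested (median 0.21), and the 3 that fell encode hemidesmosome proteins. These were DST, whose products include the plakin BP230, from 308.0 to 158.1 CPM (-0.96), plectin, PLEC (-0.43), and the transmembrane collagen COL17A1 (-0.31). Counts are per gene and do not separate the transcripts of DST. ERBIN was not called (0.0023), and the hemidesmosomal chain ITGB4 rose, as given above. The tetraspanins TSPAN8 (1.22, from under 1 CPM), CD9 (0.59) and CD151 (0.41), the last a close partner of laminin-binding integrins, rose. Other laminin receptors and basement membrane genes were 6 higher and 9 lower of 21 tested (median -0.09). COL7A1, which forms the anchoring fibrils that hold laminin-332 to the dermis in skin, fell from 555.5 ± 7.45 to 304.9 ± 27.2 CPM (-0.86), with COL4A1 (-0.61) and the linker nidogen, NID1 (-0.61). SDC2 (2.21) and FREM2 (1.66), both from under 1 CPM, and NTN4 (0.79), a laminin-related netrin, rose, as did dystroglycan, DAG1 (0.35).

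Other integrin ligands were 9 higher and 6 lower of 21 tested, with 11 of 32 listed below the filter (median 0.21). Thrombospondin-1, THBS1, fell from 805.5 ± 39.5 to 245.0 ± 4.58 CPM (log2 fold change -1.72, edgeR quasi-likelihood, Benjamini-Hochberg adjusted p = 8.16e-19). The matricellular proteins CTGF (-1.79) and CYR61 (-1.36) fell as well. L1CAM, an adhesion molecule bound by α5β1 and αv integrins, rose from 51.2 ± 4.33 to 198.2 ± 8.43 CPM (1.95, edgeR adjusted p = 5.04e-18). LTBP1 (0.80) rose from under 4 CPM. VWF was also called higher (1.40), from 0.264 to 0.720 CPM. It passed the filter through the knockout-labelled libraries, where it is high, which favoured a call in that direction. Proteases were 6 higher and 5 lower of 12 tested (median 0.23). MMP7 rose from 2.27 to 17.8 CPM (2.97), CTSB from 348.7 to 557.4 CPM (0.68), ADAM17 by 0.32 and BMP1, which trims laminin chains, by 0.18. TLL1 (-1.08), MMP14 (-0.44) and MMP2 (-0.32) fell.

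**Figure D4:**
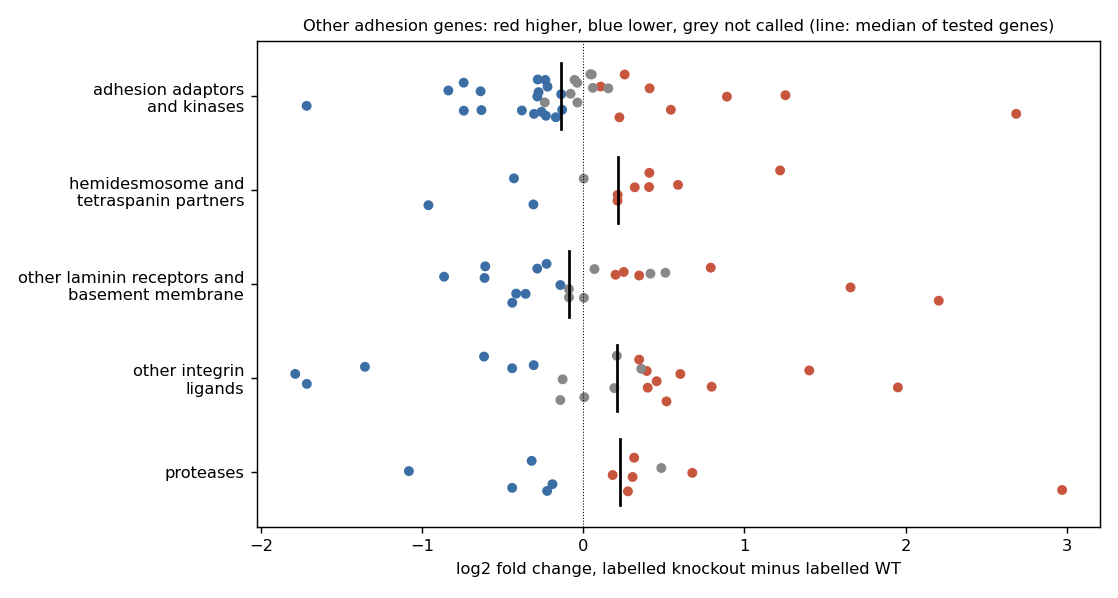
Log2 fold change of each tested gene in the 5 lists, labelled knockout minus labelled WT, with a black line for the median of each list. The medians lie between -0.14 for adaptors and kinases and 0.23 for proteases, and each list holds genes on both sides of 0.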

How the data were processed

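The notes of the submitters on processing name STAR, HISAT2, fastp and DESeq, with builds GRCh38 and hg38 and no versions. Which tool counted the reads, and with what strand option, is not given in the sources used here; the NEBNext Ultra kit named in the labels does not mark strand. The authors deposited raw read counts per gene and library, and a comparison table with normalised signal, FPKM, log2 fold changes and p-values of their own, none of which is quoted here. Counts were tested with edgeR 4.0.16 (quasi-likelihood, TMM, filterByExpr with minimum count 10 and minimum total 15), adjusted by Benjamini-Hochberg over the 16655 genes tested. The step was tested on simulated data. Levels per kilobase use the exonic gene length in the deposited table, which equals the union of GENCODE exons for the genes described. Shares of beta chains were tested with exact permutation tests (scipy 1.17.1). Alternatives were other scaling factors, cyclic loess with limma-trend (limma 3.58.1), other filters, DESeq2 1.42.0, limma-voom, a replicate block, a threshold of 0.01 and leaving out each library. All 29 tested genes may be named, with up to 3 called genes in each direction per list and those that a role needs. The genes and lists were chosen with earlier results of these data known. A further gene that met the rule, and the planned laminin share that needs it, are not reported here.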

Additional observations from a re-analysis of the deposited data

How the results depend on the processing

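Of the 22 called genes, 17 kept their call in every alternative fit that gave them a value. ITGA3, ITGAV, ITGAX, ITGB5 and LAMC3 lost it in at least 1, and ITGAM and LAMA1 gained one in at least 1; the threshold of 0.01 ended the call of ITGB5 alone. Between 20 and 23 genes were called over all alternatives. The log2 fold change of ITGA3 turned to 0.025 with cyclic loess. The count of genes changed at least 2-fold, 2 as reported, was 4 with no filter, which added ITGAD and ITGB3, and 1 with the stricter filter, where ITGAX was not tested. It was 3 without WT replicate 2, with ITGAD added, and 2 without KO replicate 3, with ITGAD in place of ITGAX. On leaving out these libraries ITGAD passed the filter only through knockout-labelled libraries, so its calls there give no support for a rise. On read counts without division by gene length, the difference in share between groups was 1.30 percentage points for ITGB6 (1.80 per kilobase), 0.0761 for ITGB7 (0.110) and 0.357 for ITGB8 (0.153). Deviations of same-numbered libraries from their group means correlated at 0.0116, 0.0205 and -0.0240, so the numbers are not taken to pair the libraries. With the replicate block 21 genes were called, ITGB5 being lost (adjusted p = 0.0662). Low counts limit the 8 untested genes and those tested on few counts, such as ITGAX, ITGA10, ITGA2B and LAMA4.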
